A study of Mus musculus with 6 samples.

Results

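The accessory subunits of Polycomb repressive complex 2 (PRC2) are proteins that join its catalytic core. Some of them decide which form of the complex is built. The accessory subunits were chosen here as the 7 genes Jarid2, Mtf2, Phf1, Phf19, Aebp2, Rbbp4 and Rbbp7. The choice was by name and not by their values, though with earlier results of these data known. All 7 of them were present among the 29955 genes of the deposited table and had enough reads to be tested. The data are RNA-seq of mouse embryonic fibroblasts (MEFs), connective tissue cells grown from embryos, from 3 Rnf40+/+ and 3 Rnf40-/- samples, all at passage 3. RNF40 is a ubiquitin ligase that places a single ubiquitin on histone H2B. According to the methods, Rnf40-/- cells came from embryos with loxP sites on both copies of Rnf40 around exons 3 and 4 and with the tamoxifen-activated recombinase Rosa26-CreERT2, which is expressed in all cell types. They received 250 nM 4-hydroxytamoxifen (4-OHT) for 5 days and were grown for 3 further days without it. The sources used here do not say if the sequenced Rnf40+/+ cells carried the recombinase or were given 4-OHT, so genotype and treatment cannot be told apart. Nor is it stated that the samples of a genotype came from separate embryos or cultures, so the p values measure only the spread between these samples, which may be technical.

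PRC2 methylates lysine 27 of histone H3, and H3K27me3 marks silent genes of development. Its core holds a methyltransferase, EZH2 or the less active EZH1, together with EED, which binds the finished mark, and SUZ12, the scaffold on which the accessory proteins sit. RBBP4 and RBBP7 are closely related histone-binding proteins, of which either can occupy the same place in the complex, and both also serve in other chromatin complexes. The remaining accessory proteins split the complex into separate forms. PRC2.1 carries a Polycomb-like protein (PHF1, MTF2 or PHF19), which binds CpG-rich DNA and methylated H3K36, and PRC2.2 carries JARID2 and AEBP2, which read ubiquitin on histone H2A.

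The libraries held between 17053436 and 26344170 reads on genes in Rnf40+/+ and between 18115481 and 20495627 in Rnf40-/- samples. Values below are normalized counts, that is reads per gene divided by the size factor of the library, and 3 reads correspond to between 2.40 and 3.58 of them. Rnf40 itself was lower in all 3 Rnf40-/- libraries, at a log2 fold change of -1.30 (adjusted p = 4.25e-07 from limma). The calls of markers below stand beside 23.3% called higher and 24.1% called lower over all genes tested (limma, adjusted p under 0.05). All 8 fibroblast markers were detected in every library, and their summed count was between 647045 and 713216 in Rnf40+/+ and between 393790 and 395933 in Rnf40-/- libraries, with 6 of 8 called lower. The 5 macrophage markers were also detected in every library, at a sum of 4709 to 8362 in Rnf40+/+ and 3040 to 3326 in Rnf40-/- libraries (2 called higher, 1 lower). Lyz2 made up most of this sum and was the marker called lower (mean 5314 in Rnf40+/+ and 2264 in Rnf40-/-). Ptprc and Cd14 were called higher, and Csf1r and Emr1 were not called. The 5 endothelial markers summed to between 51.0 and 145.7 and to between 179.4 and 282.8, with 3 of the 4 tested called higher, and no marker of this list or the macrophage list was at 0 in a whole genotype. The 5 epithelial markers summed to at most 84.8 in any library, and Epcam was listed at 0 in 2 Rnf40+/+ libraries. The 10 proliferation markers were all called lower, from sums of 6668 to 8114 to sums of 2280 to 2400. In bulk RNA, fewer cells of a type and less RNA per cell cannot be told apart, and the part of these shifts in the results below was not tested.

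The 7 accessory subunits did not move together. Mtf2 and Aebp2 were higher in Rnf40-/- MEFs, Rbbp7 and Phf19 were lower, and Jarid2, Phf1 and Rbbp4 did not pass the test (limma on log2 of the normalized count + 1, adjusted p under 0.05 over 16378 genes). Over all genes tested, 23.3% were called higher and 24.1% lower, so that 2 of 7 in each direction is close to the background and says nothing particular about the accessory subunits as a group. Counted by separation alone, the genotypes did not overlap for 3 members that were higher and for 2 that were lower, against 27.8% and 28.7% of all genes tested. The median log2 fold change of the 7 members was 0.09 (0.16 without Rnf40+/+ replicate 1) and that of all genes tested was -0.0035. The study also set a stricter limit for lower genes (a mean above 15, p under 0.05 and a log2 fold change below -1), which 5.7% of the genes tested passed here, and Phf19 was the 1 member that did.

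**Figure D1:**
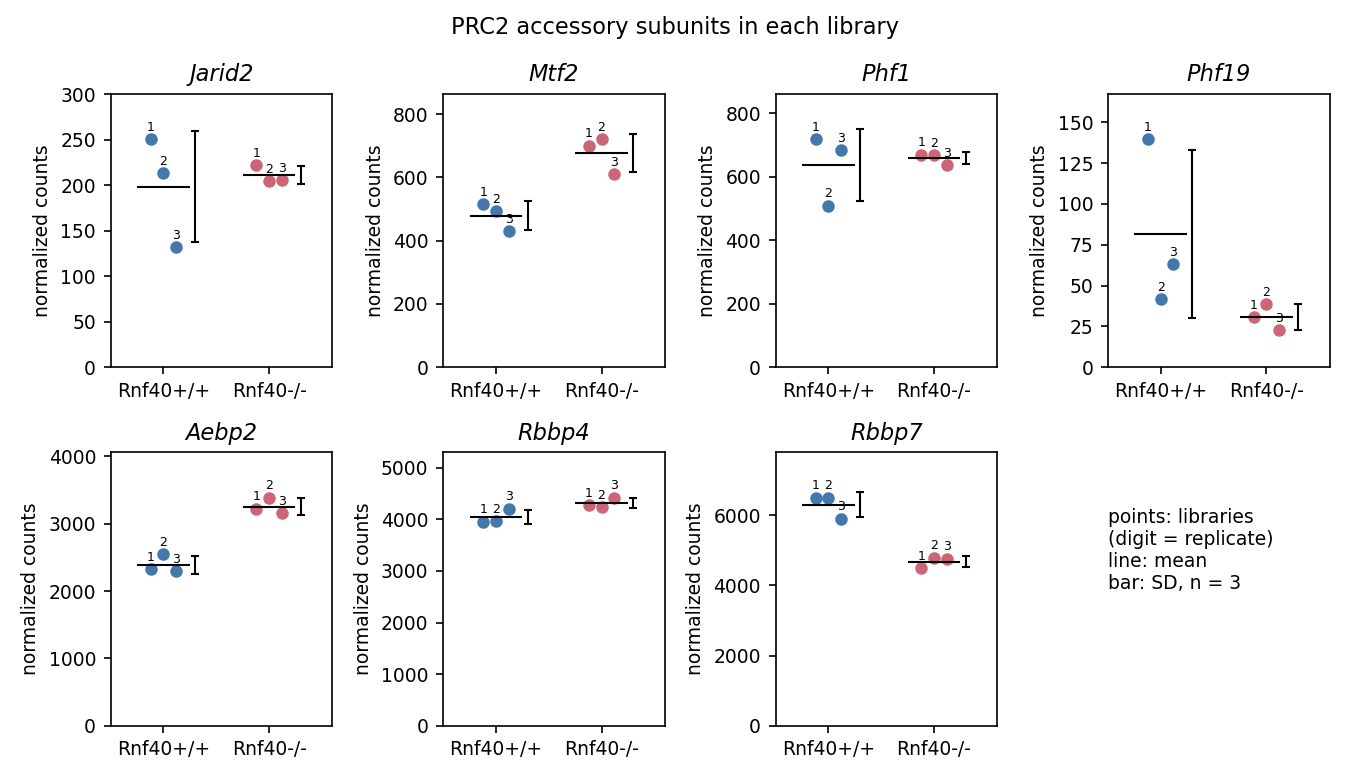
Normalized counts (y axis, from 0) of the 7 PRC2 accessory subunits in the 3 Rnf40+/+ (blue) and 3 Rnf40-/- (red) libraries, with the replicate number above each point, the mean as a line and the SD (n = 3) as a bar beside it. The genotypes do not overlap for Mtf2, Phf19, Aebp2, Rbbp4 and Rbbp7, and they overlap for Jarid2 and Phf1.

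Within PRC2.1, Mtf2 rose and Phf19 fell, and Phf1 did not pass the test. The differences between these genes are taken up with the ratios below. Mtf2 (ENSMUSG00000029267, chromosome 5 of mm9, plus strand, 108494693 to 108538023) encodes the Polycomb-like protein best known from embryonic stem cells, where it brings PRC2 to CpG islands. It had normalized counts of 515.9, 492.5 and 429.6 in the Rnf40+/+ libraries and of 700.5, 721.2 and 609.9 in the Rnf40-/- libraries. The lowest Rnf40-/- library was thus above the highest Rnf40+/+ library, and replicate 3 was the lowest of its genotype on both sides. The means were 479.4 ± 44.6 and 677.2 ± 59.2 (SD, n = 3), and the log2 fold change was 0.50 (standard error 0.10, 95% interval 0.28 to 0.71, adjusted p = 0.00141 from limma). It stayed called whichever library was left out, at values from 0.42 to 0.57. Tmed5, a gene on the opposite strand whose end overlaps the end of Mtf2, was also called higher (log2 fold change 0.30). The library kit keeps the strand, but whether reads were counted by strand is not stated, so reads in the overlap cannot be assigned with certainty.

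Phf19 (ENSMUSG00000026873, chromosome 2 of mm9, minus strand, 34749277 to 34769546) had by far the fewest reads of the members. PHF19 recruits PRC2 to genes that carry H3K36 methylation. Its normalized counts were 139.7, 41.8 and 63.1 in Rnf40+/+ and 30.6, 38.6 and 22.7 in Rnf40-/- libraries, which came from 117, 41 and 79 reads and from 30, 37 and 24 reads. The genotypes did not overlap, but the gap between the nearest libraries was small, and replicate 1 of Rnf40+/+ stood far above the other two. The means were 81.5 ± 51.5 and 30.6 ± 7.98 (SD, n = 3), and the log2 fold change was -1.23 (standard error 0.38, 95% interval -2.06 to -0.41, adjusted p = 0.0183 from limma). The call depended on single libraries. Without Rnf40+/+ replicate 1 the log2 fold change was -0.76 (limma, adjusted p = 0.0639). It was -1.04 when replicate 3 of Rnf40-/- was left out (limma, adjusted p = 0.078). Replicate 1 was also the Rnf40+/+ library with the highest sum of proliferation markers (8114, against 6668 and 6966) and the highest Ezh2 (506.4, against 367.1 and 371.3). Mki67 (494.4, against 477.2 and 581.4) and Pcna (1423.5, against 1371.6 and 1470.2) were highest in replicate 3, and the remaining proliferation markers in replicate 1. Single markers of other cell types were far higher there, with Tek of endothelial cells at 114.6 (against 11.2 and 16.0) and Krt8 of epithelial cells at 58.5 (against 1.02 and 9.58). The other markers of these lists did not share such a margin over both libraries. Pecam1 (4.78, against 4.08 and 2.40) and Krt14 (14.3, against 3.06 and 12.8) were highest there. Kdr (21.5, against 26.5 and 34.3), Tie1 (2.39, against 4.08 and 7.99) and Cdh1 (2.39, against 4.08 and 3.19) were lowest there. Cdh5 and Krt5 lay between the other Rnf40+/+ libraries, and Epcam was at 0 there as in replicate 2. The part of these differences in the Phf19 values was not tested.

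Phf1 (ENSMUSG00000024193, chromosome 17 of mm9, plus strand, 27070072 to 27074835) encodes a Polycomb-like protein that prolongs the stay of PRC2 on chromatin. Its normalized counts were 718.9, 508.9 and 684.4 in Rnf40+/+ and 669.9, 667.9 and 636.4 in Rnf40-/- libraries. The Rnf40-/- values lay inside the range of the Rnf40+/+ values, which was set by a single low library, replicate 2. The log2 fold change was 0.06 with a 95% interval of -0.19 to 0.32 (adjusted p = 0.694 from limma), so that a difference in either direction is inside the error. Without Rnf40+/+ replicate 2 the estimate changed sign, to -0.09.

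In PRC2.2, Aebp2 rose while its partner Jarid2 did not pass the test. Aebp2 (ENSMUSG00000030232, chromosome 6 of mm9, plus strand, 140570970 to 140626993), a zinc finger protein that stabilizes PRC2, had normalized counts of 2328.8, 2544.3 and 2298.3 in Rnf40+/+ and of 3224.2, 3388.7 and 3155.5 in Rnf40-/- libraries. All 3 Rnf40-/- libraries lay well above the highest Rnf40+/+ library. The means were 2390.4 ± 134.1 and 3256.1 ± 119.8 (SD, n = 3), and the log2 fold change was 0.45 (standard error 0.07, 95% interval 0.30 to 0.59, adjusted p = 0.000165 from limma). No single library decided this call, and leaving any of them out gave values from 0.42 to 0.49.

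Jarid2 (ENSMUSG00000038518, chromosome 13 of mm9, plus strand, 44824843 to 45017012) belongs to the Jumonji family but lacks demethylase activity, and it helps to recruit and stimulate PRC2. It had normalized counts of 250.8, 213.1 and 131.8 in Rnf40+/+ and of 222.3, 204.6 and 205.8 in Rnf40-/- libraries. Again the Rnf40-/- values lay inside the range of the Rnf40+/+ values, of which replicate 3 was the lowest. The log2 fold change was 0.14 with a 95% interval of -0.29 to 0.57 (limma, adjusted p = 0.599), and it was -0.13 when replicate 3 of Rnf40+/+ was left out. A change as large as that of Aebp2 is inside this interval.

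Of the histone-binding pair, Rbbp7 fell and Rbbp4 did not pass the test. Rbbp7 (ENSMUSG00000031353, X chromosome of mm9, plus strand, 159198334 to 159217024) had normalized counts of 6506.2, 6507.1 and 5903.8 in Rnf40+/+ and of 4489.6, 4794.5 and 4766.3 in Rnf40-/- libraries. Every Rnf40-/- library was below every Rnf40+/+ library, with a gap wider than the range of either genotype. The means were 6305.7 ± 348.0 and 4683.5 ± 168.5 (SD, n = 3), and the log2 fold change was -0.43 (standard error 0.07, 95% interval -0.57 to -0.29, adjusted p = 0.000213 from limma). Dropping any single library left Rbbp7 called, at values from -0.48 to -0.40. The end of Txlng lies over the end of Rbbp7 on the opposite strand, and Txlng was called higher (log2 fold change 0.54), the reverse of Rbbp7.

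Rbbp4 (ENSMUSG00000057236, chromosome 4 of mm9, minus strand, 128984344 to 129012614) had normalized counts of 3954.1, 3967.9 and 4204.5 in Rnf40+/+ and of 4274.4, 4239.3 and 4421.7 in Rnf40-/- libraries. The highest Rnf40+/+ and the lowest Rnf40-/- library nearly touched. The log2 fold change was 0.09 with a 95% interval of -0.04 to 0.22 (adjusted p = 0.223 from limma), so Rbbp4 was not called, and 0.22 is the largest difference the interval holds. Sync, which overlaps Rbbp4 on the opposite strand, was called lower (log2 fold change -0.75). The coding sequences of Rbbp4 and Rbbp7 were 78.2% identical over 1275 aligned nucleotides, with a longest identical run of 20, and no member shared a stretch of 50 nucleotides with the coding transcript of another gene. The read length of these libraries is not given in the sources used here.

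**Figure D2:**
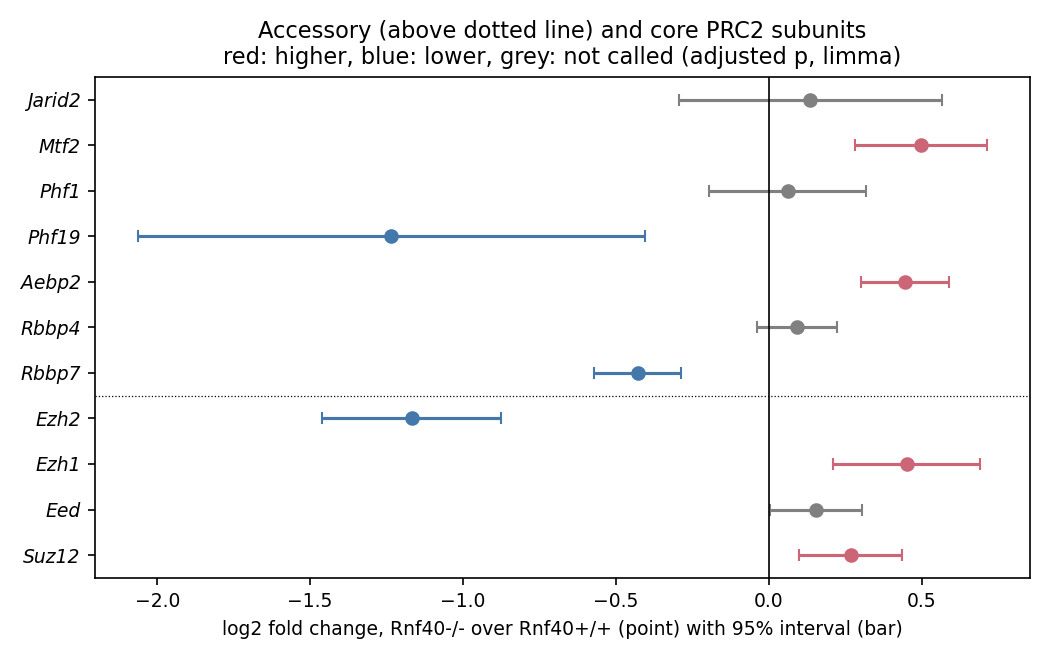
Log2 fold change of Rnf40-/- over Rnf40+/+ (x axis, point) with its 95% interval from limma (bar) for the 7 accessory and, under the dotted line, the 4 core subunits of PRC2, in red where called higher, blue where called lower and grey where not called. Phf19 has the widest interval, -2.06 to -0.41, and Rbbp4 the narrowest of the members, -0.04 to 0.22.

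The spread between libraries was not the same in the genotypes. The coefficient of variation was larger in Rnf40+/+ than in Rnf40-/- for all 7 members, and for 62.6% of all genes tested. It was 63.2% against 26.1% for Phf19, 30.6% against 4.69% for Jarid2 and 17.7% against 2.86% for Phf1. For the members with the most reads it was small on both sides, at 5.52% and 3.60% for Rbbp7 and 3.48% and 2.24% for Rbbp4. The shallowest and the deepest library were both Rnf40+/+ samples. The deepest, Rnf40+/+ replicate 3, also stood apart in the chi-square per gene of reads between pairs of libraries. It was 26.88 and 24.14 to replicates 1 and 2, against 7.87 between those, and from 5.045 to 12.43 within Rnf40-/-. The part of these differences in the larger spread was not tested.

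**Figure D3:**
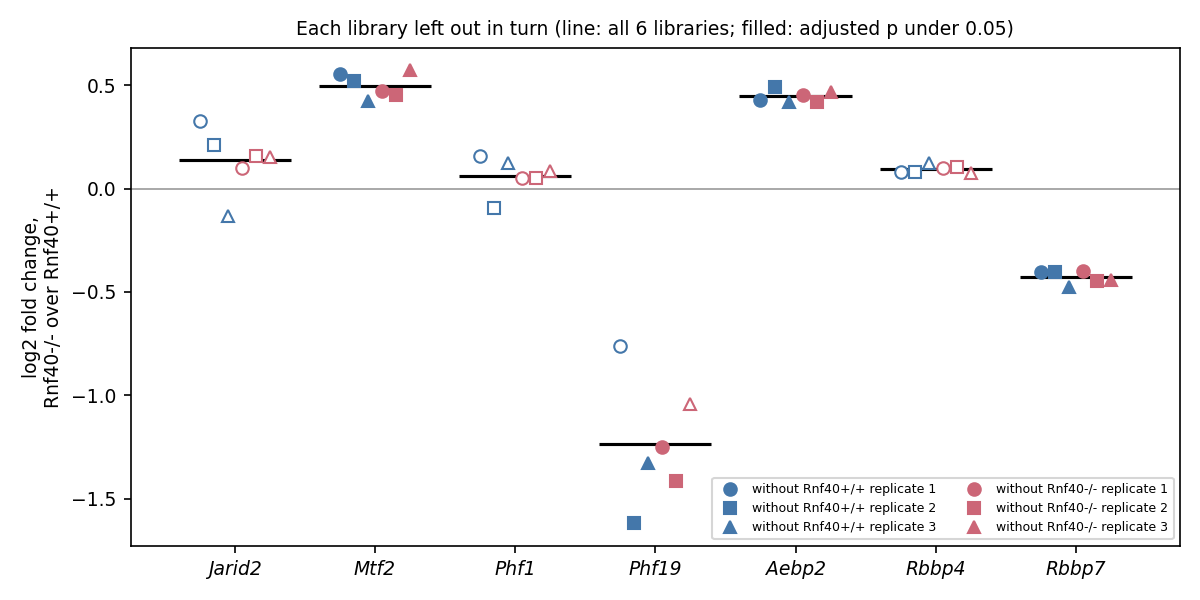
Log2 fold change of Rnf40-/- over Rnf40+/+ (y axis) of each accessory subunit with all 6 libraries (line) and with each library left out in turn (points, blue where an Rnf40+/+ and red where an Rnf40-/- library was left out, filled where the adjusted p from limma was under 0.05). Mtf2, Aebp2 and Rbbp7 keep their call throughout, Phf19 loses it without Rnf40+/+ replicate 1 and without Rnf40-/- replicate 3, and Jarid2 and Phf1 cross 0.

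To ask which accessory subunit was the more abundant transcript, normalized counts were divided by the length of the longest coding transcript in kilobases. In Rnf40+/+ MEFs the order of these levels per kilobase was Rbbp7 (2810 ± 155), Rbbp4 (917 ± 31.9), Aebp2 (402 ± 22.6), Phf1 (262 ± 46.4), Mtf2 (118 ± 11.0), Jarid2 (33.1 ± 10.1) and Phf19 (21.8 ± 13.8, SD, n = 3). The ranges of neighbours in this order did not overlap between libraries except those of Jarid2 and Phf19, though Jarid2 was the higher of them within each Rnf40+/+ library. With the merged length of all exons in place of the longest transcript, Phf19 was above Jarid2 in Rnf40+/+ replicate 1 (27.7 against 25.8), and the ranges of Aebp2 and Phf1 overlapped as well. In Rnf40-/- MEFs the order of the means was the same, with levels per kilobase of 2087 ± 75.1 for Rbbp7, 978 ± 22.0 for Rbbp4, 548 ± 20.2 for Aebp2, 271 ± 7.75 for Phf1, 167 ± 14.6 for Mtf2, 35.2 ± 1.65 for Jarid2 and 8.19 ± 2.13 for Phf19. The ranges of Jarid2 and Phf19 did not overlap there. On the same scale, the core subunits Suz12 and Eed were at 275 ± 6.71 and 519 ± 20.9 in Rnf40+/+, so that Rbbp7 and Rbbp4 were above both of them and Aebp2 lay between. With the merged exon length, Rbbp4 (462 ± 16.1) overlapped Eed (483 ± 19.5). With the longest transcript, Phf1 overlapped Suz12, and Mtf2, Jarid2 and Phf19 were below both core subunits in every Rnf40+/+ library.

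The levels per kilobase were also summed by group. PRC2.2 carries JARID2 and AEBP2 together, so the sum of their genes is not one of alternatives for the same place. The sum of Rbbp4 and Rbbp7 was 3727 ± 123 in Rnf40+/+ and 3065 ± 83.4 (SD, n = 3) in Rnf40-/-, which is 82.2% of the Rnf40+/+ level, and the genotypes did not overlap. Rbbp4 made up 24.6% ± 1.70 of this sum in Rnf40+/+ and 31.9% ± 0.81 in Rnf40-/-. The sum of Jarid2 and Aebp2 was 436 ± 27.5 and 583 ± 19.8, again with no overlap, and Aebp2 held 92.4% ± 2.13 and 94.0% ± 0.38 of it. The sum of the 3 Polycomb-like genes was 402 ± 59.2 and 446 ± 24.1, and here the genotypes overlapped. Within it the share of Mtf2 was 29.7% ± 5.01 and 37.4% ± 1.28, that of Phf1 was 65.1% ± 4.26 and 60.8% ± 1.65, and that of Phf19 was 5.18% ± 2.58 and 1.82% ± 0.39. These sums and shares were not tested.

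Ratios within a library depend little on its scaling. They were taken with 1 added to each value or sum, which slightly lowers the ratios to Phf19. A total of 6 ratios were compared with exact two-sided permutation tests, which for 3 against 3 libraries cannot give a p below 0.1. The ratio of Rbbp4 to Rbbp7 in normalized counts was 0.608, 0.610 and 0.712 in Rnf40+/+ and 0.952, 0.884 and 0.928 in Rnf40-/- libraries. Rbbp7 was thus the higher of the pair in every library, and in these counts, not divided by length, the Rnf40-/- libraries were closer to parity. Per kilobase, Rbbp4 made up only 24.6% of the pair in Rnf40+/+ and 31.9% in Rnf40-/-. The mean log2 ratio was higher by 0.52 (exact p = 0.1, the smallest possible, adjusted p = 0.2 over the 6 ratios). The ratio of Mtf2 to Phf19 was 3.67, 11.5 and 6.72 against 22.2, 18.2 and 25.8, a difference of 1.73 on the log2 scale, with the same exact p = 0.1 and adjusted p = 0.2. The ratio of Phf1 to Phf19 differed by 1.30, also without overlap and with an exact p = 0.1 and an adjusted p = 0.2. The other 3 ratios overlapped between the genotypes. That of Mtf2 to Phf1 differed by 0.44 (exact p = 0.2, adjusted p = 0.3), that of Jarid2 to Aebp2 by -0.31 (exact p = 0.4, adjusted p = 0.4), and that of PRC2.1 to PRC2.2 subunits, as sums per kilobase, by -0.26 on the log2 scale (exact p = 0.4, adjusted p = 0.4). Single Rnf40+/+ libraries moved the last pair of differences: for Jarid2 to Aebp2 it was -0.10 without replicate 1 and -0.55 without replicate 3, and for PRC2.1 to PRC2.2 it was -0.16 without replicate 1 and -0.42 without replicate 2. In the ratio of PRC2.1 to PRC2.2, Rnf40+/+ replicate 2 lay with the Rnf40-/- libraries, at a ratio of 0.738 beside 1.06 and 0.989. Aebp2 made up most of the PRC2.2 sum, so this ratio mainly sets the Polycomb-like genes against Aebp2. It does not measure the balance of the forms of the complex. No ratio passes a threshold of 0.05, which this exact test does not allow with 3 against 3 libraries.

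**Figure D4:**
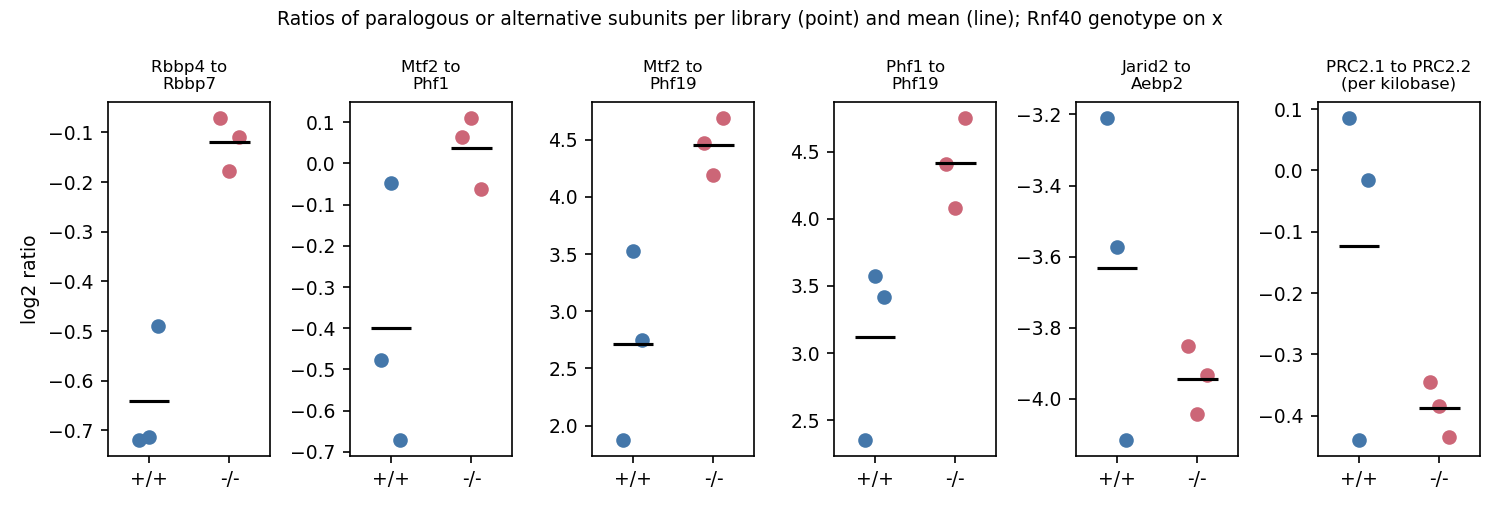
Log2 ratio of pairs of accessory subunits, and of PRC2.1 to PRC2.2 subunits per kilobase, in each library (points, blue for Rnf40+/+ and red for Rnf40-/-) with the mean as a line, each panel on its own y axis. The ratios of Rbbp4 to Rbbp7, Mtf2 to Phf19 and Phf1 to Phf19 do not overlap between genotypes, and the other 3 do.

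The accessory subunits were set beside the 4 core subunits. Ezh2 was called lower (log2 fold change -1.17, adjusted p = 2.35e-05 from limma), Ezh1 and Suz12 were called higher (0.45 and 0.27), and Eed was not called (0.15, adjusted p = 0.088 from limma). The study instead reports the RNA of Ezh1, Eed and Suz12 as unaffected, and less SUZ12 and EZH1 protein in Rnf40-/- cells. By the stricter limits of the study, Ezh2 was lower and no core subunit was higher here. The call of Suz12 was lost without Rnf40-/- replicate 2 (limma, adjusted p = 0.074) or replicate 3 (limma, adjusted p = 0.0528). Phf19 had the same direction and a similar fold to Ezh2, with a standard error of 0.38 against 0.13. Aebp2 and Ezh1 had the same log2 fold change to 2 decimals, and the difference between these genes was not tested. Among other genes known to associate with PRC2, E130012A19Rik (Epop, an elongin-binding subunit of PRC2.1), Lcor and Lcorl were tested and 0 of the 3 were called by limma, with 0 at an unadjusted p under 0.05. The edgeR and DESeq2 tests on the recovered reads also called 0 of the 3. Their log2 fold changes were -0.14, -0.54 and 0.29. AU022751 (Ezhip, an inhibitor of PRC2) had a single read in 1 Rnf40-/- library and none elsewhere.

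RBBP4 and RBBP7 also serve in the NuRD and SIN3 deacetylase complexes, in the chromatin assembly factor CAF-1 and the acetyltransferase HAT1, in the remodeler NURF and in the cell cycle complex MuvB. Of 30 genes listed as their partners in these complexes, 29 were in the table under a matching symbol and were tested. A total of 5 were called higher and 10 lower, with a median log2 fold change of -0.09 against -0.0035 over all genes tested. Against the background of 23.3% and 24.1%, this is 5 of 29 and 10 of 29. The number called higher was 3 without Rnf40+/+ replicate 1, Rnf40-/- replicate 2 or Rnf40-/- replicate 3, and 2 without Rnf40-/- replicate 1. The 3 partners in histone deposition were all lower: Chaf1b at -1.03, Hat1 at -0.78 and Chaf1a at -0.60 on the log2 scale. These encode the chaperone subunits of CAF-1 and the enzyme that acetylates new histone H4, and are used in S phase. All 10 proliferation markers were lower in the same libraries, and the part of this in the 3 values was not tested.

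In NuRD, 2 of 11 subunits were higher (Mbd2 at 0.24 and Gatad2a at 0.21) and 3 were lower, beside 23.3% and 24.1% of all genes tested. Chd3, which encodes a remodeling ATPase of NuRD, had the largest fall among the 29 partners: its normalized counts were 4966.8, 4957.1 and 4980.7 in Rnf40+/+ and 1997.5, 1950.6 and 1975.3 in Rnf40-/- libraries, a log2 fold change of -1.33 (adjusted p = 1.51e-08 from limma). The alternative ATPase Chd4 was between 3220.6 and 3764.2 in Rnf40+/+ and between 3402.3 and 3517.1 in Rnf40-/- libraries (log2 fold change -0.005, adjusted p = 0.964 from limma). The deacetylases Hdac1 and Hdac2, shared by NuRD and SIN3, were not called (-0.04 and -0.01), and Mta2 and Mta3 were lower, both at -0.26. In SIN3, against the same background, 2 of 9 tested subunits were higher and 3 were lower. Arid4b (0.52) and Sin3b (0.19) were higher, and Sap30 (-0.88), Ing2 (-0.61) and Sap130 (-0.26) were lower. Bptf, the large subunit of NURF, was higher at 0.54, and Lin9 of MuvB was lower at -0.94. The partners thus included genes that moved with Rbbp7 and genes that moved against it.

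**Figure D5:**
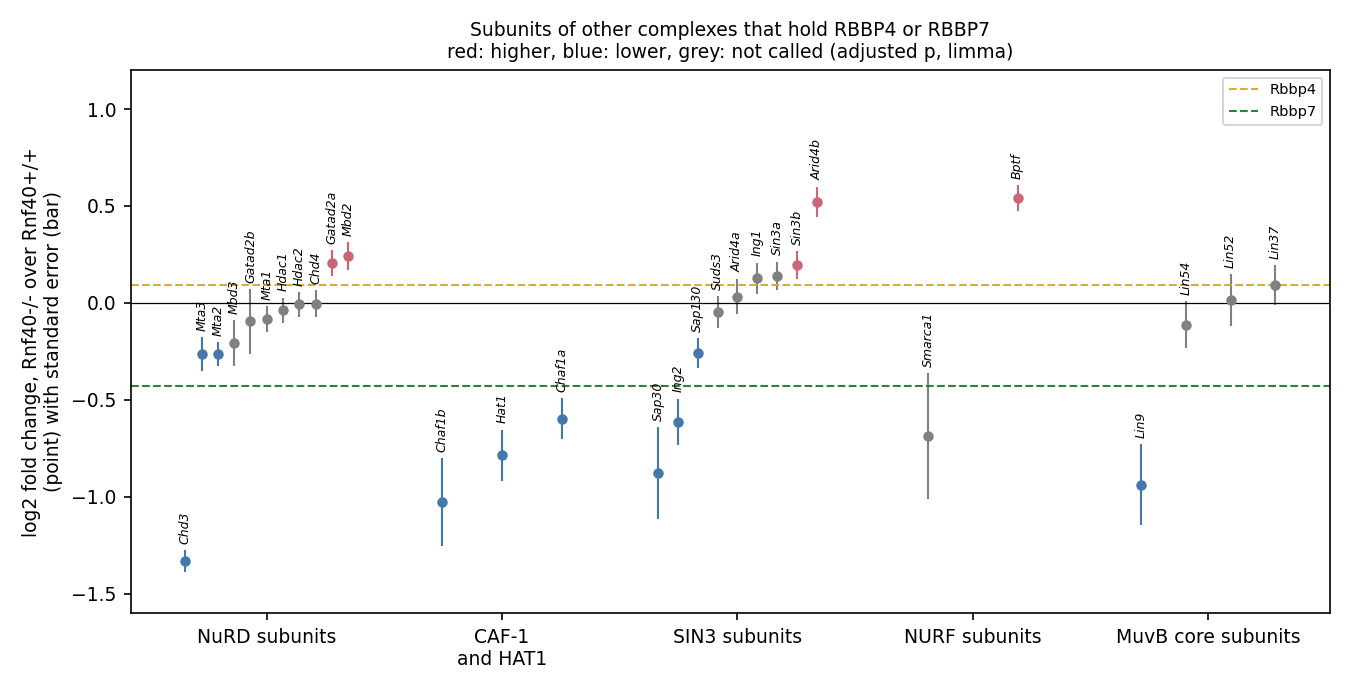
Log2 fold change of Rnf40-/- over Rnf40+/+ (y axis, point) with its standard error from limma (bar) for 29 subunits of complexes that hold RBBP4 or RBBP7, grouped by complex on the x axis, in red where called higher, blue where called lower and grey where not called, with dashed lines at the values of Rbbp4 (0.09) and Rbbp7 (-0.43). All 3 genes of the CAF-1 and HAT1 group lie below the line of Rbbp7, while NuRD and SIN3 subunits lie on both sides of 0.

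For each called member, the 2 genes with the most similar profile over the 6 libraries were taken by the root mean square difference of their centred log2 values, among 11549 tested genes with a mean of at least 100. For Mtf2 these were Cdc14b (0.009) and Rnft2 (0.028). Aebp2 was followed most closely by Canx (0.013) and Psme4 (0.018), and Rbbp7 by Mical2 (0.024) and Ogdh (0.025). For Phf19 the nearest genes, Camk2n1 (0.274) and Porcn (0.299), were much less close. Camk2n1 had its highest value in the same library as Phf19, with 478.9 in Rnf40+/+ replicate 1 against 170.3 and 175.7 in the other two. The 6 libraries are few, and a close profile among so many genes is given only as a description.

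The promoters were searched for letters known from the promoters of cell cycle genes and of many others. RefSeq starts on GRCm38.p6, with 250 bases before and 50 bases from the start on, were matched for all 7 members, with several starts for Jarid2, Mtf2 and Aebp2. Both strands were searched for E2F letters (TTTGGCGC, TTTCCCGC, TTTCGCGC, TTTGCCGC, TTTGGCGG or TTTCCCGG), for the cell cycle homology region CHR (TTTGAA or TTCGAA) and for CCAAT. Of the 11 starts of the members, that of Phf19 alone held E2F letters, TTTCCCGC on the strand opposite to the gene at positions -208 to -201 from the start, where -1 is the last base before it. Some E2F letters were present in 3.985% of 32851 promoters of the same length, and TTTCCCGC in 1.068%. The same TTTCCCGC was found at -219 to -212 of Suz12, which was called higher while Phf19 was called lower, and TTTGGCGC at 4 to 11 of Ezh2. CCAAT, present in 37.41% of all promoters, was found at 6 of the 11 starts of the members, among them on the opposite strand at -26 to -22 of Rbbp4 and at -55 to -51 of Rbbp7, of which only Rbbp7 was called. A second CCAAT of Rbbp7, on the strand of the gene at -1 to 4, runs past the start and is not marked. CHR letters, present in 19.23%, were found at 2 of the 11 starts, 1 of Mtf2 and 1 of Aebp2. The 250 bases before the start are shown for Phf19 and Suz12, which share the E2F letters and had opposite calls, each of them lost when either of 2 libraries was left out, and for the pair Rbbp4 and Rbbp7. Each reads 5′ to 3′ along its gene, with every match that lies wholly inside the 250 bases in capitals (E2F in Phf19, E2F, CHR and CCAAT in that order in Suz12, CCAAT in Rbbp4 and Rbbp7, in the reverse complement where the match is on the opposite strand). They lie on GRCm38.p6 at chr2:34913977-34914226 (minus strand), chr11:79992856-79993105 (plus), chr4:129335371-129335620 (minus) and chrX:162760122-162760371 (plus). No match in this window says only that these letters are not there, and a match is not evidence of binding.
Phf19: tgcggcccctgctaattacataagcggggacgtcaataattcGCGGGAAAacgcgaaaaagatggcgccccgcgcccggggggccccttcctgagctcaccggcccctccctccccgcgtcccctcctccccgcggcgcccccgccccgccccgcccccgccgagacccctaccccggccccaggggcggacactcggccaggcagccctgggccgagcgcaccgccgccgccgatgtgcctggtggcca
Suz12: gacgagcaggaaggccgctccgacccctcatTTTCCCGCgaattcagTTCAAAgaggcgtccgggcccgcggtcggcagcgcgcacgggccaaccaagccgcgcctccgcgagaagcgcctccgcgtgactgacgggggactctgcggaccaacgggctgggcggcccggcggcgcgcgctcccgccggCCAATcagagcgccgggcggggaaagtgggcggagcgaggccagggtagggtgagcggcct
Rbbp4: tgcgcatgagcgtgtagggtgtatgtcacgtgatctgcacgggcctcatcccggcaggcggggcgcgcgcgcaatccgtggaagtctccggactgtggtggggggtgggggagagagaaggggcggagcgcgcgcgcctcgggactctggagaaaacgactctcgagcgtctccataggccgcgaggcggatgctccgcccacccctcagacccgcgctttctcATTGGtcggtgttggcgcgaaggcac
Rbbp7: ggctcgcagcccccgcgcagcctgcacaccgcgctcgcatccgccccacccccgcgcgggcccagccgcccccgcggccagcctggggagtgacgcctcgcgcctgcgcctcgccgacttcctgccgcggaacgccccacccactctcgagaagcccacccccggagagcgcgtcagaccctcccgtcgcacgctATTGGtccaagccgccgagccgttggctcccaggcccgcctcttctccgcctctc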

How the data were processed

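RNA-seq of 3 Rnf40+/+ and 3 Rnf40-/- MEF samples was analysed from the deposited table of genes. Libraries were made by the authors from 1 µg of total RNA with a strand-specific kit. The authors mapped reads to reference transcripts of mm9 and normalized the counts with DESeq. The submitters' processing notes name Bowtie2 2.1.0 and DESeq 1.14.0. The counting tool is not given in the sources used here. Each deposited signal is a read count divided by the size factor of the library (0.837 to 1.25). In each library 100% of values were whole multiples of 1 read (tolerance 0.02), and reads were recovered from that step.

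The filterByExpr function of edgeR (version 4.0.16), applied to recovered reads, left 16378 genes, which were tested with limma (version 3.58.1, lmFit and eBayes with trend) on log2(normalized count + 1) by genotype, with Benjamini-Hochberg adjustment. The pseudocount understates the change of low genes. Recovered reads were also tested with the quasi-likelihood test of edgeR, which called 3857 genes higher and 3940 lower, and with DESeq2 (version 1.42.0). Ratios were compared by exact permutation. Members, gene lists and motifs were chosen with earlier results of these data known. All members and core subunits are named; of the other lists, genes that passed the test or had the largest or smallest values, though not every such gene; and the 2 nearest profiles. Gene positions and lengths are from the GENCODE annotation of mm9, and promoters from RefSeq on GRCm38.p6. No pair of libraries was a duplicate (chi-square per gene from 5.045 to 26.88 within a genotype). The scripts were tested on simulated data. ChIP-seq was not analysed here.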

Additional observations from a re-analysis of the deposited data

How the results depend on the processing

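Across 16 alternatives per gene, the calls of Mtf2, Aebp2, Rbbp7, Ezh2 and Ezh1 held. Among the 16, scaling by DESeq2 size factors repeated the deposited scaling, with 3809 genes called higher and 3955 lower in both. Its agreement was fixed in advance and adds no support. Other scaling (TMM, upper quartile), other tests (edgeR, DESeq2), other filters and pseudocounts of 0.1 and 10 changed no call of a member or a core subunit. For members and core subunits, what changed came from leaving out single libraries. The number of accessory subunits called lower was then between 1 and 2, that of core subunits called higher between 1 and 2, and that of Rbbp4 and Rbbp7 partners called higher between 2 and 4 and lower between 8 and 11. Outside leave-one-out, partners called higher were 4 with no filter, and partners called lower were 12 with the block described below. Phf19 lost its call without Rnf40+/+ replicate 1 (-0.76) or Rnf40-/- replicate 3 (-1.04), and Suz12 without Rnf40-/- replicate 2 (0.21, adjusted p = 0.074 from limma) or replicate 3 (0.25, limma, adjusted p = 0.0528). For Jarid2 the log2 fold change ranged from -0.13 (without Rnf40+/+ replicate 3) to 0.33 and that of Phf1 from -0.092 (without Rnf40+/+ replicate 2) to 0.16. Outside leave-one-out, the log2 fold change of Phf19 ranged from -1.40 to -1.05. The cause of these changes was not tested. Deviations of same-numbered libraries from their genotype means had correlations of 0.012, 0.017 and 0.021, and those of differently numbered libraries were between -0.053 and 0.037. With 3 libraries per genotype, these values cannot show whether same-numbered libraries shared a culture or batch, which the sources used here do not state. With a replicate block, 4021 genes were called higher and 4196 lower (3809 and 3955 without it), and no call of a member changed. With the merged length of all exons, an alternative added after seeing the data, the ratio of PRC2.1 to PRC2.2 kept its direction. Phf19 had the fewest reads of the members, 24 to 117 per library, and a coefficient of variation of 63.2% between Rnf40+/+ libraries.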
